A study of Saccharomyces cerevisiae with 6 samples.

Results

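The large ribosomal subunit of budding yeast is assembled by proteins that leave it before it translates, and 44 genes for such assembly and export factors were followed here. They were picked by name for their role: proteins of early nucleolar particles, DEAD-box RNA helicases, rRNA methyltransferases, GTPases, and factors of nuclear maturation, export and cytoplasmic maturation. Each of the 44 was measured by 1 probe set of its own, out of 5449 genes on the array. All 6 arrays came from Saccharomyces cerevisiae with a deletion of SSE1, an Hsp110 chaperone gene that serves as nucleotide exchange factor of cytosolic Hsp70. The control group (3 arrays) carried an empty plasmid, and the other group (3 arrays) a plasmid of many copies per cell (multi-copy) with the gene of yEVenus, a fluorescent protein that yeast does not use. No array came from cells that have SSE1, so the comparison is between the yEVenus plasmid and the empty plasmid within the deletion strain. Each array came from a colony of its own, grown at 30 °C in leucine dropout SC-MSG medium to an OD600 of 0.6, the exponential phase. The promoter that drives yEVenus, the marker gene of the plasmids and the mating type are not stated in the labels.

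As background, the precursor of the large subunit forms in the nucleolus around newly made rRNA. Helicases remodel the RNA, methyltransferases modify it, and GTPases act as checkpoints before the particle passes through the nuclear pore with export adaptors. In the cytoplasm the last factors are stripped off and recycled. In growing yeast these genes are known to be controlled together with those of the small subunit and of RNA polymerases I and III, as one large regulon that follows nutrients and stress.

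Values are log2 expression levels after RMA, an array method that equalises the distributions of the arrays, so a difference of 1 is a factor of 2 relative to the bulk of transcripts. Differences are yEVenus plasmid minus empty plasmid with the SE of limma, a linear model with a variance shared across genes. "Fell" and "rose" mark genes whose limma p, adjusted by Benjamini-Hochberg over all 5449 genes, was under 0.05. In RNA of a whole culture, less RNA in every cell and fewer cells with the RNA cannot be told apart. The deleted SSE1 was low on all arrays, at 3.14 ± 0.116 in the control group and 3.17 ± 0.071 in the yEVenus group (SD, n = 3 each). The lowest level of any of the 44 genes on any array was 6.95. Over all genes the correlation was 0.996 to 0.998 between colonies of 1 group and 0.966 to 0.978 across the groups.

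Transcripts of the large subunit factors were lower with the yEVenus plasmid. Of the 44 genes, 41 fell, 1 rose and 2 did not pass the limma test, where 41% of all 5449 genes fell and 29.3% rose, 70.4% in all. Their median log2 difference was -0.46, a factor of 1.38, beside -0.07 over all genes. In 42 of the 44 every yEVenus array lay below every empty-plasmid array, which was so for 43.4% of all genes. In 43 of the 44 the groups did not overlap in either direction, as for 74.9% of all genes. Falls of 1.5-fold or more were seen in 17 of the 44 and in 8.68% of all genes. The members spanned differences from -1.54 for RRP14 to 0.25 for TIF6, so the 44 genes did not move by one common factor.

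**Figure D1:**
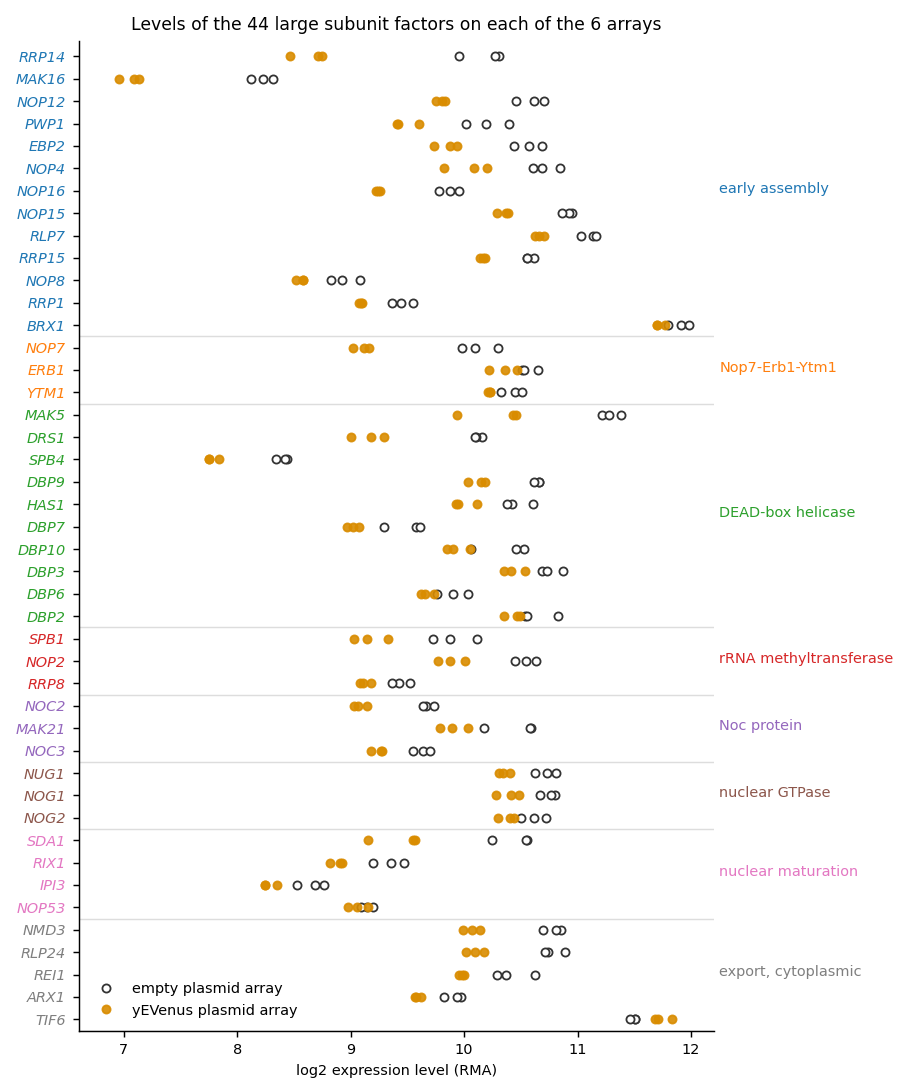
Log2 expression level (horizontal axis, RMA) of each of the 44 genes on each of the 6 arrays, open circles for the 3 empty-plasmid arrays and filled circles for the 3 yEVenus arrays, with genes grouped by role. The filled circles lie to the left of the open ones in 42 genes, mix with them in NOP53 and lie to the right in TIF6.

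The colonies of a group differed in a shared direction as well. Empty-plasmid replicate 2 gave the highest level of its group for 33 of the 44 genes and the lowest for 0. On the other side, yEVenus replicate 1 gave the lowest level of its group for 31 of the 44. The median deviation of the 44 genes from their own mean over the 6 arrays was 0.23, 0.33 and 0.21 on the empty-plasmid arrays and -0.29, -0.24 and -0.19 on the yEVenus arrays. The gap between the groups was thus wider than the spread among colonies, whose pooled SD was 0.055 on this measure.

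Among the 13 proteins of early nucleolar particles, 13 fell, with a median difference of -0.63. For this and each role group below, the share over all genes was 41% that fell and 29.3% that rose. RRP14, whose product joins the earliest precursor particles, fell the most of the 44 genes. Its levels were 9.96, 10.31 and 10.27 with the empty plasmid and 8.46, 8.72 and 8.75 with yEVenus. The nearest arrays of the groups lay 1.21 apart, and the difference was -1.54 ± 0.112 (SE; limma, adjusted p = 2.13e-05), or 2.90-fold lower.

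MAK16, another factor of the early nucleolar particle, stood at 8.12, 8.32 and 8.23 with the empty plasmid. On the yEVenus arrays it stood at 7.14, 6.95 and 7.09, a difference of -1.16 ± 0.072 (SE; limma, adjusted p = 1.13e-05). It is the only member on chromosome I, where 63.3% of the 90 genes on the array fell and the median difference was -0.44. Its neighbours DRS2 and LTE1, 4068 and 4308 nt long, were at -1.34 and -0.72. ECM1, another gene of large subunit export on the same chromosome, is 639 nt long. It was at 0.15 and did not pass (limma, adjusted p = 0.132). Over all genes the differences varied with gene length, as described further on. Without that trend ECM1 was at -0.01 and did not pass (limma, adjusted p = 0.9). The part of chromosome I in the value of MAK16 was not tested.

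NOP12, an RNA-binding protein of early particles, had levels of 10.46, 10.70 and 10.62 with the empty plasmid. With yEVenus they were 9.75, 9.81 and 9.83, which is -0.80 ± 0.0694 (SE; limma, adjusted p = 4.26e-05). The WD-repeat protein gene PWP1, which acts at the same stage, stood at 10.02, 10.40 and 10.19 and then at 9.41, 9.42 and 9.60. Its difference was -0.73 ± 0.1 (SE; limma, adjusted p = 3.82e-04), and the groups of both genes were clear of each other. EBP2, NOP4, NOP16 and NOP15, the last an RNA-binding protein needed for maturation of the large rRNA precursor, were at -0.72, -0.68, -0.63 and -0.56. RLP7, RRP15, NOP8 and RRP1 were between -0.45 and -0.37. BRX1, whose product binds that of EBP2, fell least, by 0.18 (limma, adjusted p = 0.0292). Its call was lost without empty-plasmid replicate 1 or 2 or yEVenus replicate 1 or 3, with median centring of the arrays (-0.11, limma, adjusted p = 0.147) and under cyclic loess (-0.14, 0.0638).

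Nop7, Erb1 and Ytm1 share a complex of large subunit assembly, and all 3 of its genes fell. NOP7 had levels of 9.98, 10.10 and 10.30 with the empty plasmid and 9.02, 9.12 and 9.16 with yEVenus. The nearest arrays of the groups lay 0.82 apart, and the difference was -1.03 ± 0.0856 (SE; limma, adjusted p = 3.51e-05). ERB1 and YTM1 were at -0.22 and -0.20 (limma, adjusted p = 0.0301 and 0.0148). The ERB1 call was lost without empty-plasmid replicate 2 or 3 or yEVenus replicate 1 or 2, and the calls of both genes were lost with median centring (-0.15 for ERB1 and -0.14 for YTM1) and under cyclic loess (-0.15 and -0.13). The change in NOP7 exceeded that in ERB1 by 0.81 and that in YTM1 by 0.82, and for both pairs the within-array gap of all 3 yEVenus arrays lay outside that of the empty-plasmid arrays. ERB1 and YTM1 differed from each other in change by 0.01. The exact two-sided permutation test over arrays gave 0.1 for NOP7 against either partner, the smallest p that 3 arrays against 3 allow, and 0.15 after adjustment over 6 such pairs, chosen after the values were seen. The NOC2 against NOC3 and RIX1 against IPI3 pairs also gave 0.1, with changes that differed by 0.21 and 0.08, and NOC2 against MAK21 gave 0.9.

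DEAD-box helicases unwind or remodel RNA with ATP, and 9 of the 10 in the set fell, with a median of -0.47, where 41% of all genes fell. Without the trend with gene length described further on, 7 of the 10 fell, beside 33.5% of all genes. MAK5 stood at 11.22, 11.28 and 11.39 with the empty plasmid and at 9.94, 10.46 and 10.43 with yEVenus. Replicate 1 was well below the other yEVenus colonies, and all 3 lay below the controls, and the difference was -1.02 ± 0.134 (SE; limma, adjusted p = 3.03e-04). MAK5 lies on chromosome II, where the 387 measured genes had a median difference of -0.32.

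DRS1, a helicase that works beside the Nop7 complex, had 10.16, 10.10 and 10.09 with the empty plasmid. With yEVenus it had 9.01, 9.18 and 9.30, which is -0.96 ± 0.0762 (SE; limma, adjusted p = 2.96e-05). The helicase genes SPB4, DBP9, HAS1 and DBP7 were at -0.62, -0.52, -0.48 and -0.47, and DBP10, DBP3 and DBP6 at -0.42, -0.33 and -0.23. From DBP9 to DBP10, neighbours in this order differed by less than the SE of either, so their order is not settled. The DBP10 call was lost without empty-plasmid replicate 3 or yEVenus replicate 1 or 2, and the DBP6 call without empty-plasmid replicate 2 or yEVenus replicate 2 or 3. The DBP6 call was also lost with median centring (-0.16), quantile normalization of the genes tested (-0.18) and cyclic loess (-0.14).

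DBP2, a helicase that also acts on messenger RNA, was the one helicase that did not pass. Its levels were 10.54, 10.83 and 10.56 with the empty plasmid and 10.35, 10.47 and 10.49 with yEVenus. The groups did not cross, with 0.043 between the nearest arrays, and the difference was -0.20 ± 0.0858 (SE; limma, adjusted p = 0.0659). Over the arrays left out in turn its difference ran from -0.25 without empty-plasmid replicate 1, where it passed (limma, adjusted p = 0.0365), to -0.11 without replicate 2, where it did not (0.172). It also passed with the replicate number as a block (limma, adjusted p = 0.0451), with the dimmest genes left out (0.0464) and with an intensity trend in the variances (0.0394).

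All 3 rRNA methyltransferase genes fell. SPB1, which methylates a ribose in the large subunit's catalytic centre, had 9.73, 10.12 and 9.87 with the empty plasmid and 9.03, 9.14 and 9.33 with yEVenus (-0.74 ± 0.112 SE; limma, adjusted p = 6.02e-04). NOP2, which methylates cytosine in the large rRNA, had 10.45, 10.64 and 10.54 and then 9.77, 9.87 and 10.00 (-0.66 ± 0.0761 SE; limma, adjusted p = 1.59e-04). The highest yEVenus array was 0.40 below the lowest control for SPB1 and 0.44 below it for NOP2. RRP8, an adenine methyltransferase gene, was at -0.31.

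The Noc proteins accompany the particle through the nucleus, Mak21 with Noc2 at first and Noc2 with Noc3 later, and their 3 genes fell. NOC2 went from 9.67, 9.74 and 9.64 to 9.03, 9.06 and 9.14, one of the tightest pairs of groups in the set (-0.60 ± 0.0541 SE; limma, adjusted p = 5.00e-05). MAK21 and NOC3 were at -0.55 and -0.39. The 3 nuclear GTPase genes fell by similar amounts, NUG1 by 0.37, NOG1 by 0.35 and NOG2 by 0.23. NUG1 had 10.73, 10.81 and 10.63 with the empty plasmid and 10.31, 10.35 and 10.41 with yEVenus, with no overlap (limma, adjusted p = 0.00104). The NOG2 call was lost without yEVenus replicate 3 (-0.19), with median centring (-0.17) and under cyclic loess (-0.16).

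Of the 4 genes for later nuclear steps, 3 fell. SDA1, needed for maturation of the particle in the nucleoplasm, had levels of 10.24, 10.55 and 10.55 with the empty plasmid and 9.15, 9.55 and 9.56 with yEVenus. Replicate 1 was the lowest colony in each group, and the difference was -1.03 ± 0.129 (SE; limma, adjusted p = 2.41e-04). RIX1 and IPI3, which share a complex, were at -0.46 and -0.38. IPI1, the gene of the other protein in that complex and no member of the set, was at -0.01 (limma, adjusted p = 0.889). NOP53, which brings the exosome to the precursor for trimming, stood at 9.20, 9.14 and 9.09 and then at 8.98, 9.15 and 9.06. It was the one gene of the 44 whose groups overlapped (-0.08 ± 0.0603 SE; limma, adjusted p = 0.253).

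Among the 5 genes for shuttling, export and cytoplasmic maturation, 4 fell and 1 rose. NMD3, the adaptor that links the particle to the export receptor Crm1, stood at 10.70, 10.86 and 10.81 with the empty plasmid. With yEVenus it stood at 9.99, 10.07 and 10.14 (-0.72 ± 0.064 SE; limma, adjusted p = 4.73e-05), with 0.55 between the nearest arrays. LSG1, the GTPase gene whose product releases Nmd3 in the cytoplasm, is not one of the 44 and was at -0.96 ± 0.0763 (SE; limma, adjusted p = 2.96e-05). RLP24 was at -0.69, REI1 at -0.45 and ARX1, an export receptor of the particle, at -0.32. Of the partners of these last proteins, ALB1, which binds Arx1, was at 0.03 and JJJ1, a co-chaperone that works with Rei1, at -0.05, and neither passed (limma, adjusted p = 0.704 and 0.657). Without the trend with gene length described further on, ALB1 fell, at -0.26 (limma, adjusted p = 0.00611).

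TIF6 was the only one of the 44 that rose. Its product keeps the large subunit from joining the small one until it is released in the cytoplasm. Its levels were 11.50, 11.50 and 11.46 with the empty plasmid and 11.71, 11.83 and 11.69 with yEVenus. All yEVenus arrays were above all controls, by 0.25 ± 0.0556 on average (SE; limma, adjusted p = 0.00422). The genes for its release went separate ways, with RIA1, a GTPase gene, at -0.51 (limma, adjusted p = 9.13e-05) and SDO1 at 0.14 (limma, adjusted p = 0.042). Without that trend, SDO1 was at 0.06 and did not pass (limma, adjusted p = 0.311). IPI1, ALB1, JJJ1, RIA1, SDO1 and ECM1 were named for their partners or position after their values were seen.

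**Figure D2:**
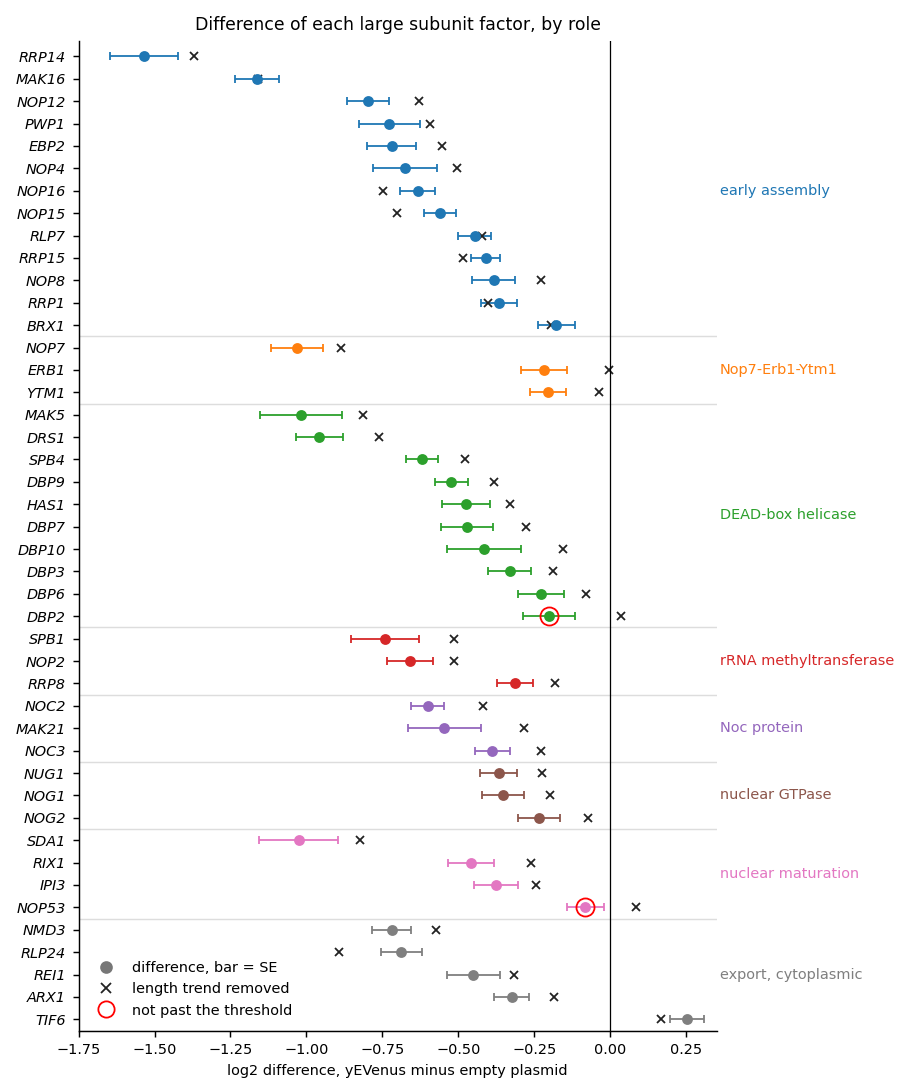
Log2 difference, yEVenus minus empty plasmid (horizontal axis), of each gene by role, as filled circles with the SE as bars, and the same after removal of the trend with coding length as crosses. RRP14 is farthest to the left at -1.54, TIF6 alone is to the right of 0 before the removal, and red rings mark DBP2 and NOP53, which did not pass.

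Differences over all genes varied with gene length, and the 3' to 5' signal of control genes differed between the groups. Over the 5449 genes, Spearman's rho of difference and coding length was -0.457, and over the 44 it was -0.088 (Pearson's r -0.456 and -0.094), each across genes, which are not independent replicates. The 3' minus 5' gap of control probe sets was wider on every yEVenus array for 7 of 8 yeast genes, with mean differences of 0.05 at the 3' probe sets and -0.60 at the 5' ones. The exception, URA3, was at most 3.01 on any array. The part of this in the difference of a given gene was not tested.

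The members were also set beside all genes of similar coding length. When all genes were split by coding length into 5 bins of about equal size, genes of the bin from 660 to 1030.4 nt had a median difference of 0.02 and 31% fell, while 7 of the 8 members in it fell with a median of -0.43. In the bin of the longest genes, over 2106 nt, 62% of all genes fell with a median of -0.25, beside 10 of 11 members and -0.55. The bin of the shortest genes, with a median of 0.36, held 1 member, RLP24 (600 nt), at -0.69. With the length trend removed from each array, 36 of the 44 fell and 1 rose, beside 33.5% and 31.4% of all genes, and the median of the 44 was -0.36. RRP14, MAK16 and NOP7 were then at -1.37, -1.16 and -0.89, RLP24 at -0.89 and TIF6 at 0.17 (limma, adjusted p = 0.02). ERB1, YTM1, DBP6, NOG2 and DBP10 did not pass without the trend, with differences of -0.0025, -0.04, -0.08, -0.07 and -0.16. DBP2 and NOP53, not called in either fit, turned to 0.03 and 0.09. Coding length counts introns here, so a gene with an intron was binned and adjusted as a longer one. DBP2 was counted as 2643 nt and NOG2 as 1993 nt, and their values without the trend depend on these lengths.

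**Figure D3:**
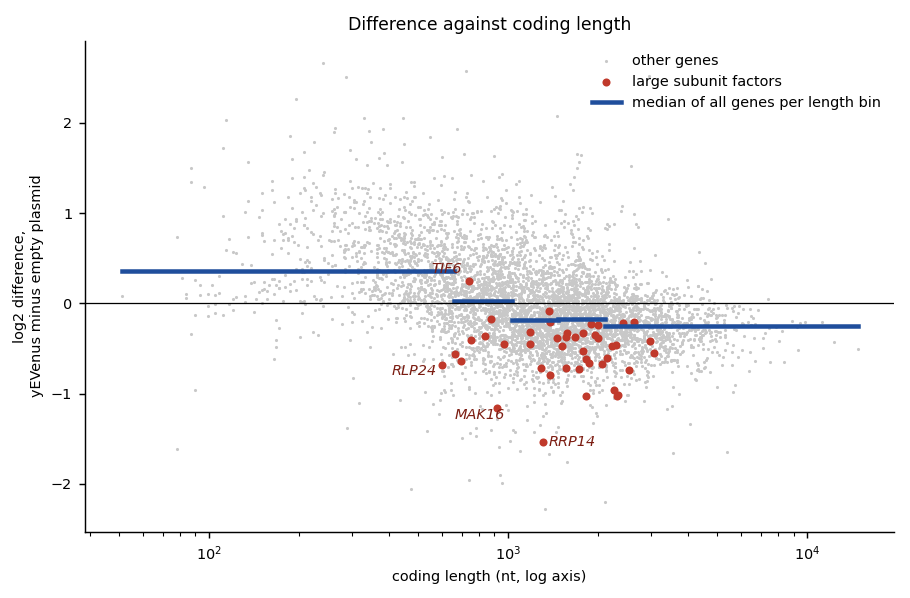
Log2 difference, yEVenus minus empty plasmid (vertical axis), against coding length in nt (horizontal log axis) for the 5449 genes in grey and the 44 large subunit factors in red, with blue bars at the median of all genes in each of 5 length bins. The blue bars step from 0.36 to -0.25, and all red points but TIF6 lie below 0.

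The 44 genes lie on 14 of the 16 chromosomes. Without the 3 members on chromosomes I and II (MAK16, MAK5 and REI1), 38 of 41 fell, with a median of -0.46, where 39.1% of all genes on the other chromosomes fell. Of the 71 measured neighbours that are in none of the lists used here, 25 fell (35.2%) and 25 rose, with a median of -0.03, where 41% of all genes fell and 29.3% rose. Over all 80 measured neighbours, listed ones included, 31 fell (38.8%) and 26 rose, so the share that fell was near that of all genes in either count. Both neighbours of MAK16 on chromosome I fell, and these are 4068 and 4308 nt long. Both of MAK5 on chromosome II fell as well, BMT2 at -0.51 and SUP45 at -0.58. Among the 19 of the 71 that are transcribed away from a member across a shared upstream region, 7 fell and 6 rose. DRS1 at -0.96 faces COX17, a copper chaperone gene, at 1.26, and MAK21 at -0.55 faces UBC5, a ubiquitin-conjugating enzyme gene, at 0.98. COX17 is 210 nt and UBC5 537 nt long, and short genes were higher on the whole array.

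Most other genes of the same pathway fell as well. Of 45 further genes of large subunit assembly and export, 30 fell (66.7%) and 6 rose, with a median of -0.31, where 41% of all genes fell and 29.3% rose. The lowest were LSG1, RSA1, a nucleoplasmic assembly factor at -0.87, and RRP5, an RNA-binding factor of both subunits at -0.68. The highest were CGR1, NIP7 and TMA16, at 0.52, 0.44 and 0.37, with coding lengths of 363, 546 and 537 nt. With the length trend removed, 24 of the 45 fell and 0 rose (CGR1 -0.0028, NIP7 0.17, TMA16 0.09), where 33.5% of all genes fell and 31.4% rose. Of 66 small subunit processome and maturation genes, 52 fell (78.8%) and 3 rose (median -0.43), and of 36 genes of RNA polymerases I and III, 25 fell (69.4%) and 6 rose (median -0.36). With the length trend removed, 41 of the 66 and 21 of the 36 fell. Neither the shares nor the medians of these lists were tested against those of the 44.

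Genes for the structural proteins of the large subunit were mixed. Of the 75 on the array, 10 fell (13.3%) and 27 rose (36%), where 41% of all genes fell and 29.3% rose, and their median difference was 0.09. With the length trend removed 30 fell and 17 rose, with a median of -0.01, where 33.5% of all genes fell and 31.4% rose, so the sign of the median depends on that trend. RLP24 and RLP7 are named for their likeness to ribosomal proteins. RLP24 was at -0.69, whereas RPL24A and RPL24B were at 0.06 and 0.03, and RLP7 was at -0.45, whereas RPL7A was at -0.08; none of the 3 ribosomal protein genes passed (limma, adjusted p = 0.221, 0.53 and 0.178). With the length trend removed, RPL24A and RPL24B fell, to -0.31 and -0.34. RPL7A, counted as 1662 nt with introns included, was then at 0.06. The RPL24A and RPL24B probe sets can share signal, as the genes are near-identical, and these 3 genes were chosen after the values were known.

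**Figure D4:**
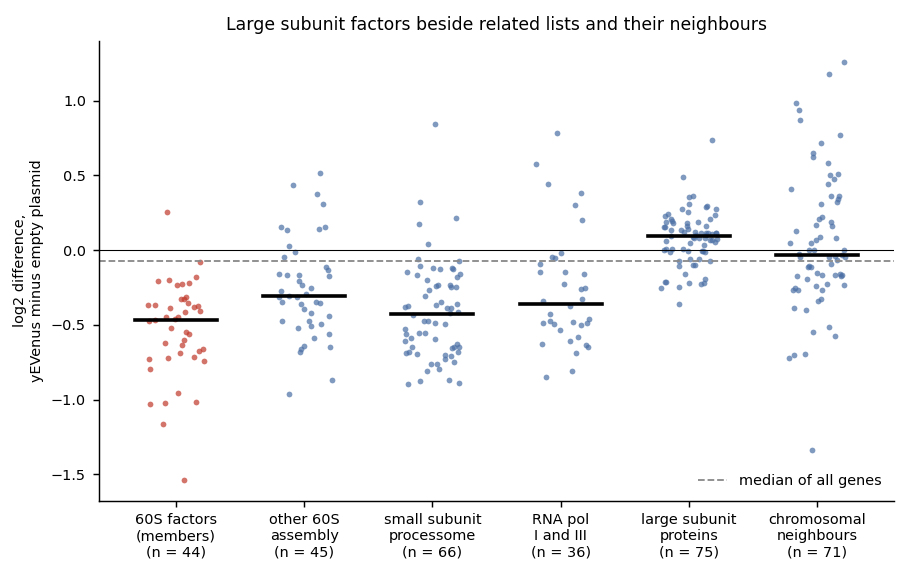
Log2 difference, yEVenus minus empty plasmid (vertical axis), of each gene as a point for the 44 large subunit factors and 5 other sets, with a black bar at the median of each set and a dashed line at the median of all genes. The medians are -0.46 for the 44 factors, -0.31, -0.43 and -0.36 for the 3 other ribosome biogenesis lists, 0.09 for large subunit proteins and -0.03 for chromosomal neighbours.

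Most genes that control this regulon fell too. Of 14 regulators, 11 fell (78.6%) and 0 rose (limma; 3 did not pass), where 41% of all genes fell and 29.3% rose. The lowest were TOD6 and DOT6, related repressors that bind upstream of ribosome biogenesis genes, at -0.84 ± 0.163 and -0.64 ± 0.0555, and STB3, another repressor of the regulon, at -0.62 ± 0.102 (SE; limma, adjusted p = 0.00218, 4.26e-05 and 9.82e-04). TOD6 lies on chromosome II. The smallest falls were those of TOR2, which encodes a TOR kinase, SCH9, a kinase gene that acts below TOR, and IFH1, an activator of ribosomal protein genes, at -0.28, -0.28 and -0.31. SFP1, an activator of the whole regulon, fell by 0.36. With the length trend removed, TOR2, SCH9 and IFH1 did not pass, at 0.07, -0.06 and -0.04. In that fit 7 of the 14 fell, beside 33.5% of all genes, and 2 long kinase-pathway genes, KOG1 and TOR1, rose by 0.19 and 0.39.

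Probe sets for the mature rRNAs did not separate the groups. Of 7 such probe sets, 0 passed in the limma fit of every probe set, and 0 had an unadjusted p under 0.05. Their differences ran from -0.52 to 0.15, and the empty-plasmid colonies varied with an SD of up to 1.21. The labelling kit primes at the 3' end of poly-A RNA, so these values are not a measure of rRNA amount.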

How the data were processed

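Per the labels' protocols, 200 ng of total RNA from each of 6 cultures was labelled with a 3' IVT kit and hybridised to Affymetrix arrays. The authors deposited log2 levels per probe set and array. The submitters' processing notes name RMA as well as R 3.2.0, and the genome build is not given in the sources used here. Of 5900 probe sets, 5498 name 1 gene in the platform annotation, 0 several and 402 none. Symbols were updated through the gene identifiers of RefSeq assembly R64 (12 changed), which also gave chromosome, gene order and coding length (introns included). For the 47 genes with more than 1 probe set the brightest was kept.

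The comparison used limma 3.58.1 under R 4.3.3 (lmFit, then eBayes, without a block), with p-values adjusted over 5449 genes; the number of arrays limits the precision. The fit was also run on simulated data with independent noise in each gene. That run does not show how well the p-values are calibrated on these data. The length trend was a loess fit (span 0.5) of each array's deviations on log2 coding length. Members, lists, tests and alternatives were chosen with earlier results of these data known. Array values are given for the 10 lowest members, those that rose or did not pass, and the smallest p per role; of other assembly genes and of regulators, the 3 lowest and 3 highest called are named (SFP1 was added after its value was seen). Promoter motifs and sequences were not analysed here.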

Additional observations from a re-analysis of the deposited data

Results flagged for a closer look

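The arrays carry 24 probe sets for bacterial poly-A control transcripts (dap, lys, phe and thr), which the comparison of genes does not use. Their levels were higher with the yEVenus plasmid, with a median log2 difference of 1.71 and a range of 0.71 to 2.31. In the limma fit of every probe set 23 of 24 passed, and in 22 of 24 every yEVenus array was above every empty-plasmid array. The 18 probe sets of hybridisation controls differed by 0.098 to 0.85, with a median of 0.56. The labels do not state the amounts added. Their part in the differences of the 44 genes, which are relative to the bulk of yeast transcripts on each array, was not tested.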

How the results depend on the processing

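The 19 alternatives were fixed with earlier results of these data known. In 764 of 829 combinations of member and alternative the direction and side of the threshold were those reported; 56 lost the call, 4 gained it and 5 turned, and 22 of the 44 members kept their call in all alternatives run on them. The 5 that turned were DBP2 (0.0345 in both fits with the length trend removed) and NOP53 (0.0129 under cyclic loess, 0.0861 in both fits with the length trend removed); neither was called in any of these. The median of the 44 moved from -0.46 to -0.40 with median centring, -0.38 under cyclic loess, -0.36 with the length trend removed and -0.33 when chromosomes I and II were also left out. Each of the first 3 left 36 members falling and 1 rising, where 34.1%, 34.8% and 33.5% of all genes fell. Against a minimum change of 1.2-fold, 22 members fell and 0 rose, beside 16.6% and 15.5% of all genes. In that test 1753 genes were called in place of 3835, since it asks for more than a difference from 0. Leaving out 1 array gave 38 to 41 falls, beside 35.6% to 40.3% of all genes. The median was then -0.51 to -0.42, with 1 rise each time and 3359 to 3809 genes called. Same-numbered arrays deviated from their group means with correlations of 0.193, -0.129 and 0.196. Arrays of different number were not compared in this way, so whether the numbers pair the samples is not settled. With the replicate block 42 members fell and 1 rose, beside 40.8% and 29.4% of all genes. The median was then -0.46 and 3827 genes were called. The calls of BRX1, DBP6, ERB1, NOG2 and YTM1, whose falls were small, were lost under both median centring and cyclic loess; those of the first 4 and of DBP10 were also lost when certain single arrays were left out.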
